A study of Mus musculus with 24 samples.

Results

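Cwc22 (ENSMUSG00000027014, on mouse chromosome 2) was read far more often in WSB/EiJ fat than in fat of the other strains studied. It was 1 gene of 37991 gene identifiers in the count table, found by its identifier and symbol, and it was among the 20035 genes that passed the filter on low counts. The gene was chosen by its count level, which differed between strains, so its strain levels and strain differences are given as a description, with no test. The libraries came from RNA-seq of inguinal subcutaneous fat pads of 24 female mice, each 26 weeks old, with 3 mice in each of 8 groups. The groups were WSB/EiJ, CAST/EiJ, NZO/HiLtJ and C57BL/6J mice, each strain on a high-fat, high-sucrose diet (45% of energy from fat, 34% sucrose by weight) or on a standard diet (17% of energy from fat). WSB/EiJ and CAST/EiJ are inbred strains derived from wild mice, NZO/HiLtJ is an inbred strain that becomes obese and diabetic, and C57BL/6J is the strain of the mouse reference genome. No mouse carried a transgene or a targeted allele, as far as the labels say.

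Cwc22 encodes a protein of the spliceosome, the machine that removes introns from pre-messenger RNA. Through a MIF4G domain it binds Eif4a3, a DEAD-box RNA helicase, and brings it to the spliceosome. Eif4a3 is then deposited upstream of exon-exon junctions as the centre of the exon junction complex (EJC), which marks spliced messenger RNA and takes part in its export, translation and nonsense-mediated decay. In WSB/EiJ mice a segment of chromosome 2 that holds Cwc22 is known to be present in many extra copies. Gene copies were not measured here.

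The reference annotation lists entries that are nearly the same as Cwc22 in sequence, so the sequences are shown before the counts. Among GENCODE vM21 transcripts (build GRCm38), 11 genes other than Cwc22 aligned with a Cwc22 transcript over at least 150 bases, and 5 of them were in the count table. The 11 genes include 7 single-exon entries, among them Gm13691, each 2493 bases long and on chromosome 2 like Cwc22. The 20-exon Cwc22 transcript Cwc22-203 and Gm13691 were 97.676% identical over 2496 aligned columns, with 39 substituted bases and 19 gap columns. Cwc22-203, 3090 bases long, was taken as the Cwc22 coding transcript closest to Gm13691. Its bases outside the alignment were not compared. Windows of 100 bases, the length of 1 read in this study, were compared within the coding sequence. Windows that held a gap column were left out. Reads came in pairs and pairs were not compared, so a share of windows is not a share of read pairs. Of the 2154 windows kept, 512 (23.8%) held no substituted base between the 2 transcripts. The median window held 1 substituted base and the most different of them 8. The most different windows are shown to mark where a read could tell the entries apart, with the differing bases in capitals.
Cwc22-203, bases 368 to 467: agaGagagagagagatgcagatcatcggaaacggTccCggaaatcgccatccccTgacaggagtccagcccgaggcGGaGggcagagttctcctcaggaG
Gm13691, bases 231 to 330: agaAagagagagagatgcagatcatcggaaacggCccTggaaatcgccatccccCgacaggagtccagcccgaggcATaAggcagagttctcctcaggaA
The longest stretch without a difference was 344 bases, and its first 100 bases are shown because a read from them has the same sequence in both entries.
Both entries, from base 633 of Cwc22-203 and base 496 of Gm13691: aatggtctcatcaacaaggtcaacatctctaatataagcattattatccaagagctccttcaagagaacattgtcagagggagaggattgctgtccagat
The submitters' processing notes name RSEM, a program that divides reads matching several entries among them by estimation. A Cwc22 count is therefore uncertain as to which of the near-identical entries its reads came from. These are sequences of the reference strain, and those of the other strains were not compared.

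Cwc22 had 218782, 185336 and 193997 counts in the 3 WSB/EiJ high-fat libraries and 145177, 164329 and 191343 counts in the 3 WSB/EiJ standard-diet libraries. The other 18 libraries held between 3016 and 5752 counts each. Cwc22 alone took 0.208% to 0.316% of all counts of a WSB/EiJ library, against 0.00538% to 0.00899% in the other strains. Library totals ran from 47651641 to 84009032 counts. In bulk tissue, a higher level in each cell and a larger share of cells with the transcript cannot be told apart.

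Levels below are in normalised CPM, counts brought to a common library total after scaling by trimmed means (TMM). In WSB/EiJ mice on the high-fat diet, Cwc22 lay at 2926, 2500.1 and 2567 CPM, and in CAST/EiJ mice on that diet at 77.5, 81.1 and 66.9 CPM. On the same diet it lay at 55.1, 58.2 and 63.3 CPM in NZO/HiLtJ and at 61.2, 55.1 and 54.6 CPM in C57BL/6J. The lowest WSB/EiJ library was far above the highest library of any other strain. On the standard diet, Cwc22 lay at 2532, 2828 and 2629.5 CPM in WSB/EiJ and at 69.1, 66.8 and 65.6 CPM in CAST/EiJ. It lay at 61.4, 57.7 and 56.3 CPM in NZO/HiLtJ and at 67.8, 59.9 and 61.4 CPM in C57BL/6J on that diet. The WSB/EiJ libraries again stood clear of all others.

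**Figure D1:**
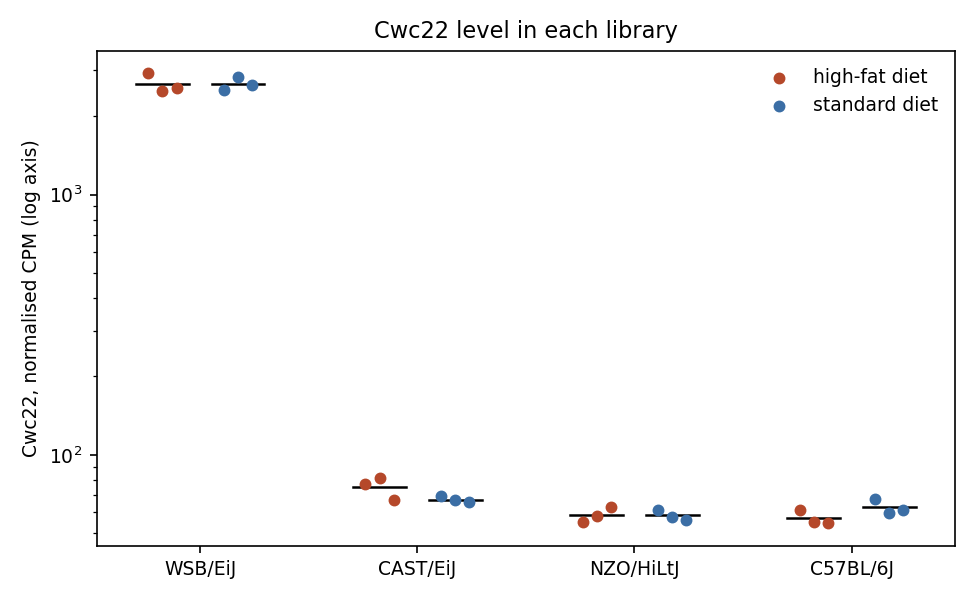
Normalised CPM of Cwc22 on a log axis for the 24 libraries, by strain and diet. Each point is 1 library, and each bar is the mean of the 3 libraries of a group. The 6 WSB/EiJ libraries lie between 2500.1 and 2926 CPM and the other 18 between 54.6 and 81.1 CPM.

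The 6 WSB/EiJ libraries of both diets averaged 2664 ± 173 CPM (SD, n = 6 for each strain). CAST/EiJ followed with 71.2 ± 6.48 CPM, then C57BL/6J with 60.01 ± 4.86 CPM and NZO/HiLtJ with 58.7 ± 3.1 CPM. The WSB/EiJ mean was 37.4 times that of CAST/EiJ, 45.4 times that of NZO/HiLtJ and 44.4 times that of C57BL/6J. With edgeR the difference on the log2 scale was 5.23 ± 0.09 for WSB/EiJ minus CAST/EiJ, 5.51 ± 0.09 for WSB/EiJ minus NZO/HiLtJ and 5.47 ± 0.09 for WSB/EiJ minus C57BL/6J (± SE). Below WSB/EiJ the order was hardly resolved. The CAST/EiJ libraries (65.6 to 81.1 CPM) overlapped those of C57BL/6J (54.6 to 67.8 CPM) and lay above those of NZO/HiLtJ (55.1 to 63.3 CPM). C57BL/6J and NZO/HiLtJ overlapped. In CPM over the unscaled library totals, the CAST/EiJ and NZO/HiLtJ libraries overlapped too.

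The authors' deposited upper-quartile normalised values showed the same separation. They ran from 77.6 to 101.0 in WSB/EiJ, from 2.01 to 2.71 in CAST/EiJ, from 1.74 to 2.03 in NZO/HiLtJ and from 1.71 to 2.2 in C57BL/6J. Of the 20035 genes tested, 144 had a larger difference than Cwc22 in WSB/EiJ minus CAST/EiJ, 218 in WSB/EiJ minus NZO/HiLtJ and 108 in WSB/EiJ minus C57BL/6J. Of these, 144, 204 and 94 lay outside a set of 14 identifiers, described below, whose counts ran in parallel with a near-identical copy of Cwc22. Genes with hardly any reads outside WSB/EiJ are among them. In WSB/EiJ minus C57BL/6J, the pseudogene Gm13649 was at 7.99 with 21 to 37 counts per WSB/EiJ library. The pseudogene Gm13726 was at 7.01 with 10 to 30 counts. How many others were of this kind is not given here. Cwc22 was chosen by a level that differed between strains, so its rank is a description only.

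Some libraries held RNA of cells other than adipocytes, judged by marker genes in CPM over unscaled totals. The adiponectin gene Adipoq, a marker of fat cells, was as low as 4.75 CPM in 1 CAST/EiJ high-fat library (replicate 1), while the lowest of the other libraries had 621 CPM. Epcam, an epithelial marker, reached 5 CPM or more in 6 libraries, which were that CAST/EiJ library, all 3 WSB/EiJ high-fat libraries, WSB/EiJ standard-diet replicate 3 and C57BL/6J high-fat replicate 1. The CAST/EiJ library with little Adipoq had 77.5 CPM of Cwc22, between the other 2 of its group. In that group adipocyte markers summed to 231 CPM at the lowest (median 23267). Reproductive tract markers reached 1799 CPM (median 44.3) and smooth muscle markers 13526 CPM (median 386). That library was kept in the main fits. Without it 21.5% of all genes were higher in WSB/EiJ than in C57BL/6J, against 13.2% with it. The 2 WSB/EiJ libraries with Epcam under 5 CPM had 2532 and 2828 CPM of Cwc22, within the range of the other 4. The diet could be tested for Cwc22, since the diet had no part in choosing it.

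No diet difference of Cwc22 was detected in any strain. In WSB/EiJ the mean was 2664 ± 229 CPM on the high-fat diet and 2663 ± 151 CPM on the standard diet (SD, n = 3 each), and the 2 sets of libraries overlapped. In CAST/EiJ it was 75.2 ± 7.36 CPM on the high-fat diet and 67.2 ± 1.78 CPM on the standard diet. In NZO/HiLtJ it was 58.8 ± 4.12 CPM on the high-fat diet and 58.5 ± 2.63 CPM on the standard diet. In C57BL/6J it was 56.95 ± 3.67 CPM on the high-fat diet and 63.1 ± 4.2 CPM on the standard diet. The libraries of both diets overlapped in every strain.

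On the log2 scale the high-fat minus standard difference was 0.0005 ± 0.10 in WSB/EiJ, with a 95% interval from -0.22 to 0.22 and an adjusted p of 1 in edgeR's quasi-likelihood test. In CAST/EiJ it was 0.16 ± 0.10, with an interval from -0.06 to 0.38 and an adjusted p of 0.301. In NZO/HiLtJ it was 0.01 ± 0.10, with an interval from -0.21 to 0.23 and an adjusted p of 0.987. In C57BL/6J it was -0.15 ± 0.10, with an interval from -0.37 to 0.07 and an adjusted p of 1. A p that misses the threshold does not show that the diets gave equal levels, and the intervals give the sizes that remain possible. For comparison, 21.5% of all genes tested passed the threshold (adjusted p under 0.05) for the diet in WSB/EiJ, 4.87% in CAST/EiJ, 4.89% in NZO/HiLtJ and 0.00998% in C57BL/6J.

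Averaged over the strains, the diet difference was 0.01 ± 0.05, with an interval from -0.10 to 0.12 and an adjusted p of 0.949 in edgeR, in a comparison in which 28.9% of all genes passed. An exact permutation test of the diet within strains gave a 2-sided p of 0.922 over 160000 arrangements. Within 1 strain such a test cannot go below p = 0.1, and it gave an exact p of 1 in WSB/EiJ, 0.2 in CAST/EiJ, 0.9 in NZO/HiLtJ and 0.2 in C57BL/6J. The strain by diet interaction had an adjusted p of 0.489 in edgeR, where 3.08% of genes passed. The unadjusted p of Cwc22 was above 0.05 in all 6 of these tests, and neither DESeq2 nor limma-voom made a call.

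The diet values of WSB/EiJ, CAST/EiJ and the average over strains depended on how libraries were scaled. Over unscaled library totals, the WSB/EiJ mice on the high-fat diet had 3159, 2832 and 2636 CPM of Cwc22 and those on the standard diet 2085, 2415 and 2459.8 CPM, with no overlap. The edgeR difference without scaling factors was then 0.31 with an adjusted p of 0.0695. The median of all genes tested was 0.39 in that comparison, against 0.07 with TMM scaling, so Cwc22 lay below the median gene under both. In CAST/EiJ the difference without scaling factors was 0.33 with an adjusted p of 0.0815, and averaged over strains it was 0.13 with an adjusted p of 0.107. The median of all genes moved up by 0.16 in CAST/EiJ and by 0.12 on average. In NZO/HiLtJ and C57BL/6J the values were 0.04 (adjusted p = 0.932) and -0.16 (adjusted p = 1). The same WSB/EiJ groups differed in other cell types. Epithelial markers (9 of 9 in the table) summed to 210 to 786 CPM in the high-fat libraries and to 19.9 to 45.0 CPM in the standard-diet libraries. Smooth muscle markers (7 of 7) summed to 1448 to 6181 CPM in the high-fat libraries and to 151 to 1009 CPM in the standard-diet libraries. Adipocyte markers (8 of 8) summed to 10218 to 14788 CPM in the high-fat libraries and to 21629 to 26111 CPM in the standard-diet libraries. Brain markers (7 of 7) summed to 52.9 to 2720 CPM in the high-fat libraries (median 69.4), so that 1 library stood apart. In the standard-diet libraries they summed to 44.1 to 53.3 CPM. Their part in the diet value was not tested.

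**Figure D2:**
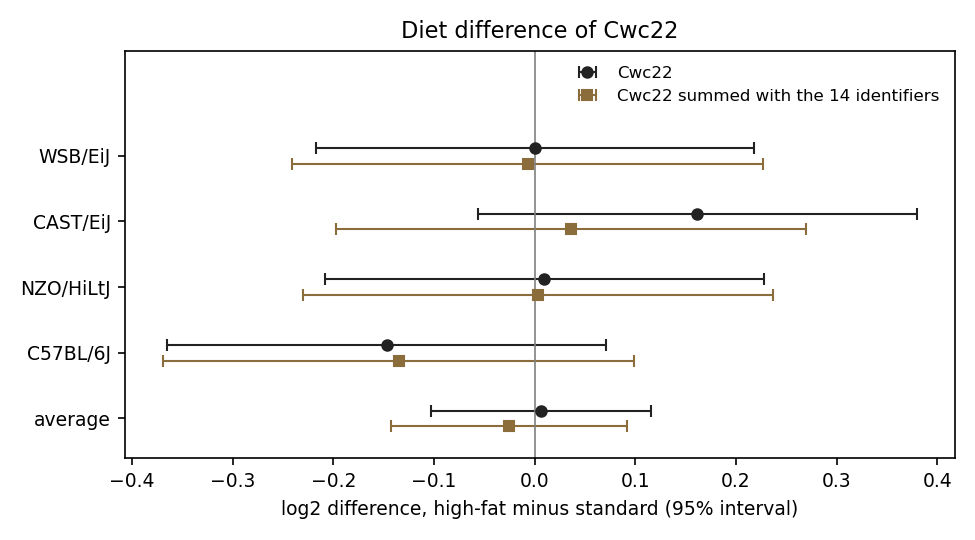
Log2 difference of Cwc22, high-fat minus standard diet, in each strain and averaged over strains, for Cwc22 alone (circles) and for Cwc22 summed with 14 near-parallel identifiers (squares). Bars are 95% intervals from edgeR standard errors. Every interval includes 0.

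The near-identical entry Gm13691 followed the strains with a still wider range. It had 11871 to 17454 counts in WSB/EiJ libraries, 387 to 711 in CAST/EiJ, 106 to 147 in NZO/HiLtJ and 85 to 141 in C57BL/6J. In WSB/EiJ it averaged 215 ± 12.7 CPM and in CAST/EiJ 9.01 ± 0.457 CPM (SD, n = 6 each). In NZO/HiLtJ it averaged 1.63 ± 0.135 CPM and in C57BL/6J 1.64 ± 0.175 CPM. The CAST/EiJ libraries lay clear of the others below WSB/EiJ, at 5.52 times the mean of NZO/HiLtJ and 5.48 times that of C57BL/6J.

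A further 13 identifiers, none with a symbol in the reference table, had counts that ran in parallel with Gm13691 (Pearson r of at least 0.999978 over the 24 libraries, with 0.9689 for the next gene). Together with Gm13691 they make 14 identifiers, found after the values were seen. Only 4 different rows of counts occurred among the 14, and 6 of them, Gm13691 included, carried exactly the same counts in every library.

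The 14 identifiers summed to 3236 ± 193 CPM in WSB/EiJ mice and to 129 ± 6.25 CPM in CAST/EiJ mice (SD, n = 6 each). In NZO/HiLtJ they summed to 23.3 ± 1.8 CPM and in C57BL/6J to 23.2 ± 2.34 CPM. The ratio of their summed count to the Cwc22 count of the same library therefore separated the strains in another order. It was 1.2 to 1.23 in WSB/EiJ libraries, 1.6 to 1.99 in CAST/EiJ, 0.368 to 0.436 in NZO/HiLtJ and 0.354 to 0.402 in C57BL/6J. Within CAST/EiJ the ratio was 1.76, 1.60 and 1.79 on the high-fat diet and 1.95, 1.87 and 1.99 on the standard diet, with no overlap. In the other strains the ratios of the 2 diets overlapped.

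**Figure D3:**
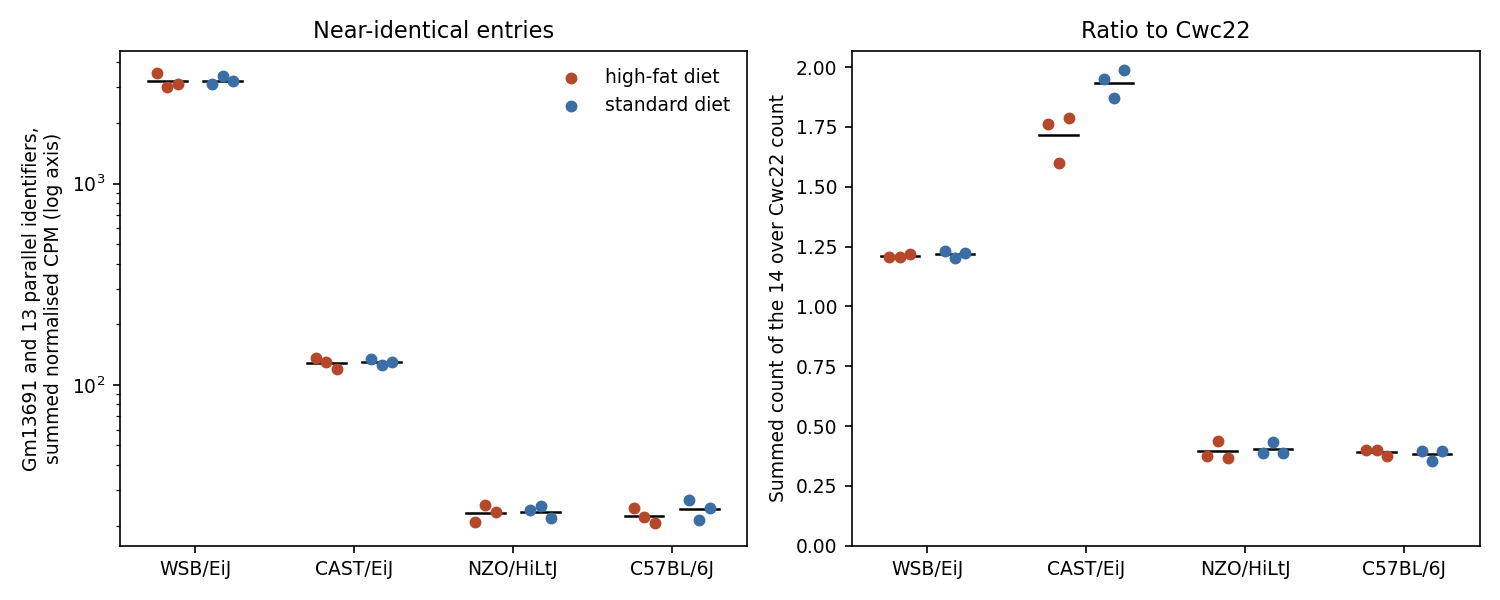
Left, summed normalised CPM of Gm13691 and the 13 identifiers that run in parallel with it, on a log axis. Right, the ratio of their summed count to the Cwc22 count of the same library. Each point is 1 library and each bar a group mean. The ratio is highest in CAST/EiJ (1.6 to 1.99) and lowest in NZO/HiLtJ and C57BL/6J.

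Cwc22 was also summed with the 14 identifiers. Whether reads were divided between Cwc22 and the 13 identifiers without a symbol was not tested. In WSB/EiJ the sum averaged 5899 ± 366 CPM and in CAST/EiJ 200.4 ± 10.8 CPM (SD, n = 6 each). In NZO/HiLtJ it averaged 82.0 ± 4.18 CPM and in C57BL/6J 83.3 ± 7.02 CPM. The WSB/EiJ mean was 29.4 times that of CAST/EiJ, 72.0 times that of NZO/HiLtJ and 70.9 times that of C57BL/6J. CAST/EiJ stood at 2.45 times NZO/HiLtJ and 2.41 times C57BL/6J, and its libraries did not overlap with theirs. The sum took 0.466% to 0.697% of the counts of a WSB/EiJ library. Its diet differences did not pass either, with an average of -0.03 ± 0.06 and an adjusted p of 0.749 in edgeR.

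The other annotated relatives of Cwc22 held few counts. Gm13727, a transcript on chromosome 2 that matches a Cwc22 transcript over 193 bases at 99.482% identity, had 37 to 62 counts in each WSB/EiJ library. Over the 6 libraries of each other strain it had 0 counts in CAST/EiJ, 1 in NZO/HiLtJ and 2 in C57BL/6J. In CPM, WSB/EiJ was at least 88.8-fold higher than CAST/EiJ, taking 3 counts over the group as the floor. The ratio was 345 over NZO/HiLtJ (95% counting interval 61.5 to 13700) and 159 over C57BL/6J (43.6 to 1320). Hdx, a homeobox gene on chromosome X with a transcript 88.003% identical to Cwc22 over 2609 bases, lay at 0.887 to 4.92 CPM in WSB/EiJ and overlapped with every other strain. The processed pseudogenes Gm9218 and Gm7340, both on chromosome X, reached at most 2 and 69 counts in a WSB/EiJ library, and at most 1 and 26 in the other strains.

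Next, 10 genes around Cwc22 on chromosome 2 were examined, namely the 5 nearest on each side that passed the filter on low counts. Of the 10, the pseudogenes Gm13649 and Gm13726 passed that filter through their WSB/EiJ counts alone and are left out of the counts that follow. Of the other 8, 1 was higher in WSB/EiJ than in CAST/EiJ and 1 lower, in a comparison in which 35.5% of all genes passed in edgeR. Against NZO/HiLtJ 1 was higher and 2 lower, where 45.6% of all genes passed. Against C57BL/6J 0 of the 8 passed in edgeR, where 29.5% of all genes passed. At an unadjusted p under 0.05 there was 1 higher gene and 0 lower, with DESeq2 likewise 1 and 0, and with limma-voom 0 and 0. The same 6 WSB/EiJ libraries enter all of these comparisons.

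The pseudogenes Gm13649 and Gm13726 lie on opposite sides of Cwc22 and held reads almost only in WSB/EiJ. Gm13649 had 21 to 37 counts in each WSB/EiJ library and 0 counts in all 18 others, so that WSB/EiJ was at least 54.0-fold higher than CAST/EiJ, 69.9-fold than NZO/HiLtJ and 64.4-fold than C57BL/6J (floor of 3 counts over a group). Gm13726 had 10 to 30 counts in each WSB/EiJ library, and 1, 1 and 0 counts summed over the CAST/EiJ, NZO/HiLtJ and C57BL/6J libraries. These values are given as a description, with no test. Both are low in absolute terms and were removed by a stricter filter of 1 CPM in 3 libraries.

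The protein-coding genes next to Cwc22 did not share its pattern. Zfp385b, which encodes a zinc finger protein, lay at 2.63 to 15.1 CPM in WSB/EiJ (median 3.71) and at 1.74 to 4.26 CPM in C57BL/6J (median 2.8). The groups overlapped, with a difference of 0.88 ± 0.36 and an adjusted p of 0.0693 in edgeR. Its size rested on 1 library, since without WSB/EiJ high-fat replicate 2 it was 0.31 with an adjusted p of 0.398. Leaving out any other single library gave 0.76 to 1.09, and 4 of these fits passed, the lowest adjusted p being 0.0186 without WSB/EiJ high-fat replicate 3. In the standard-diet groups alone the difference was 0.34 (adjusted p = 0.691). Ube2e3, which encodes a ubiquitin-conjugating enzyme, lay at 24.2 to 33.4 CPM (median 30.8) in WSB/EiJ and overlapped every other strain. It passed in none of the 3 comparisons. Gm13651, a pseudogene, was lower in WSB/EiJ than in CAST/EiJ by -2.12 ± 0.14 (adjusted p = 8.43e-10) and did not pass against the other strains. Itga4, the α4 integrin subunit of leukocytes, was higher in WSB/EiJ than in CAST/EiJ (0.56 ± 0.11, adjusted p = 0.000622) and lower than in NZO/HiLtJ (-0.88 ± 0.11, adjusted p = 5.81e-06). Against NZO/HiLtJ, Cerkl was lower (-0.84, adjusted p = 0.00376) and Itprid2 higher (0.39, adjusted p = 0.00914), while Ccdc141 and Sestd1 passed in none of the 3 strain comparisons.

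**Figure D4:**
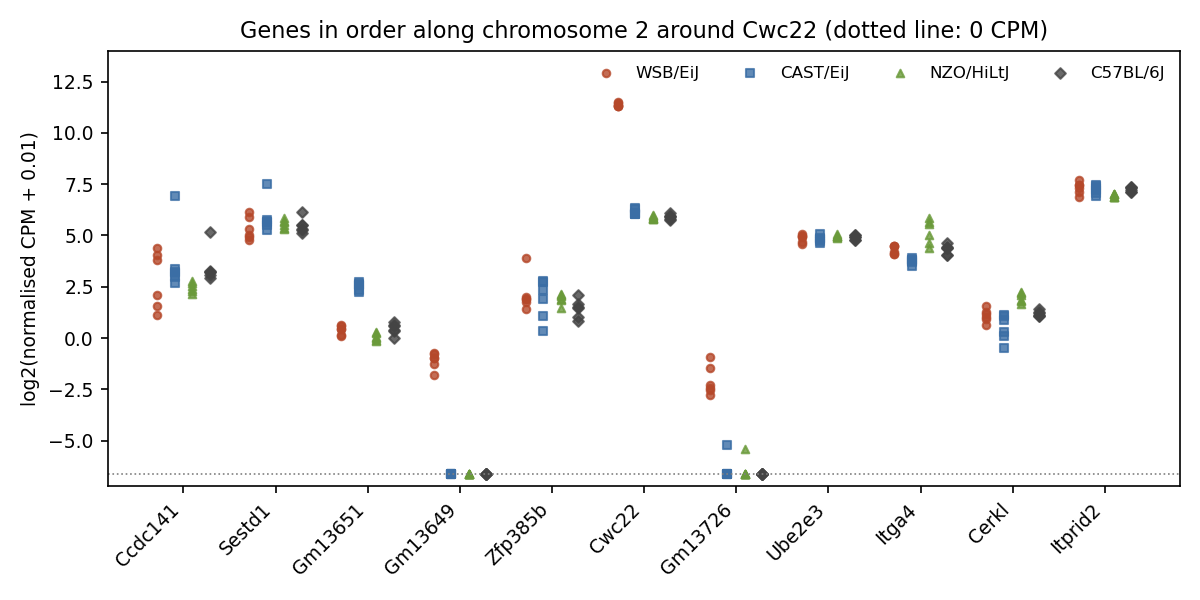
Level of Cwc22 and the 10 nearest tested genes on chromosome 2, in their order along the chromosome, as log2 of normalised CPM plus 0.01. Each point is 1 library, coloured by strain. WSB/EiJ stands apart from the other 3 strains at Gm13649, Cwc22 and Gm13726, and mingles with at least 1 other strain at the remaining genes.

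Because Cwc22 acts with a defined set of proteins, 7 lists of its partners and of related factors were examined, 78 genes in all, of which 77 were tested. In WSB/EiJ minus C57BL/6J, 9 of 77 were higher and 7 lower, against 13.2% of all genes higher and 16.4% lower. In WSB/EiJ minus CAST/EiJ, 18 were higher and 13 lower, against 18.1% and 17.3% of all genes. In WSB/EiJ minus NZO/HiLtJ, 18 were higher and 8 lower, against 23.9% and 21.7% of all genes. The median log2 difference of the 77 genes was 0.02 against C57BL/6J (all genes 0.03), -0.02 against CAST/EiJ (all genes 0.01) and 0.03 against NZO/HiLtJ (all genes 0.06). Over library totals without scaling factors, 4 were higher and 12 lower against C57BL/6J, where 9.96% of all genes were higher and 19.9% lower. Against NZO/HiLtJ 11 were then higher and 14 lower, where 18.9% of all genes were higher and 24.8% lower. In the high-fat groups alone 1 was higher and 4 lower against C57BL/6J, where 8.81% of all genes were higher and 9.1% lower. Without CAST/EiJ high-fat replicate 1, 14 were higher against C57BL/6J, where 21.5% of all genes were higher, and 13 were lower against NZO/HiLtJ, where 25.6% of all genes were lower. The largest difference of a list gene in WSB/EiJ minus C57BL/6J was 0.55, against 5.47 for Cwc22.

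Eif4a3, the helicase that Cwc22 binds, was at a like level in WSB/EiJ, NZO/HiLtJ and C57BL/6J and low in CAST/EiJ. It lay at 30.4 to 38.2 CPM (median 36.2) in WSB/EiJ, 5.89 to 8.81 CPM (median 6.93) in CAST/EiJ, 33.6 to 37.1 CPM (median 36.1) in NZO/HiLtJ and 29.7 to 39.2 CPM (median 36.9) in C57BL/6J. Only the CAST/EiJ libraries stood apart. The difference was 2.28 ± 0.07 in WSB/EiJ minus CAST/EiJ (adjusted p = 7.9e-15 in edgeR), -0.03 ± 0.06 in WSB/EiJ minus NZO/HiLtJ (adjusted p = 0.736) and -0.03 ± 0.06 in WSB/EiJ minus C57BL/6J (adjusted p = 0.789).

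Eif4a3 is on chromosome 11. Of the 1567 chromosome 11 genes tested, 49.4% were higher in WSB/EiJ than in CAST/EiJ, with a median log2 difference of 0.60. On the other autosomes and X this share was 13.1 to 17.5%, and the median difference lay between -0.07 and 0.03. Of the 11 list genes on chromosome 11, 10 were higher in WSB/EiJ than in CAST/EiJ. They included Eftud2, a GTPase of the U5 particle (2.5 ± 0.07), Slu7, a second-step splicing factor (1.73 ± 0.07), Prpf8, the scaffold of the spliceosome core (1.6 ± 0.08), and Alyref, an export adaptor of the EJC (1.45 ± 0.12). Off chromosome 11, 8 of 66 list genes were higher and 13 lower, against 2862 and 3326 of 18468 genes in all. In WSB/EiJ minus C57BL/6J the chromosome 11 genes had a median of 0.02 and 12.8% of them were higher. The split by chromosome was made after the values were seen, and the cause was not tested.

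The other core proteins of the EJC are Magoh, Magohb, Rbm8a and Casc3. In WSB/EiJ minus C57BL/6J, Magohb was at -0.35 ± 0.14 (adjusted p = 0.0653 in edgeR), Rbm8a at -0.09 ± 0.06 (adjusted p = 0.312), Casc3 at 0.03 ± 0.06 (adjusted p = 0.714) and Magoh at 0.03 ± 0.09 (adjusted p = 0.828). Casc3, which clamps the helicase onto RNA, was higher in WSB/EiJ than in CAST/EiJ (0.47 ± 0.06, adjusted p = 3.35e-06) and is also on chromosome 11. Magohb was lower in WSB/EiJ than in NZO/HiLtJ (-0.79 ± 0.14, adjusted p = 0.000176).

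Among the 10 peripheral EJC factors, Pym1, which binds the complex and takes part in its removal, was higher in WSB/EiJ than in each other strain. It lay at 9.78 to 15.9 CPM (median 12.1) in WSB/EiJ, 7.87 to 10.7 CPM (median 9.16) in CAST/EiJ, 8.93 to 10.6 CPM (median 10.1) in NZO/HiLtJ and 7.72 to 9.68 CPM (median 9.13) in C57BL/6J. WSB/EiJ stood clear of C57BL/6J and overlapped the other strains. The difference was 0.45 ± 0.09 against CAST/EiJ (adjusted p = 0.000565), 0.34 ± 0.09 against NZO/HiLtJ (adjusted p = 0.00438) and 0.49 ± 0.09 against C57BL/6J (adjusted p = 0.000393). In the high-fat groups alone its difference from C57BL/6J was 0.33, with an adjusted p of 0.0737. Pym1 and Prpf8 were the 2 of the 77 genes that passed as higher in all 3 comparisons in edgeR, against 3.7% of all genes tested, and 0 passed as lower in all 3, against 4.79%. The 3 comparisons share the WSB/EiJ libraries. Upf3b and Upf3a, which link the EJC to decay, passed against C57BL/6J by a narrow margin, as higher (0.34, adjusted p = 0.0455) and lower (-0.23, adjusted p = 0.0307). Leaving out 1 library ended the Upf3b call in 13 of 24 fits and the Upf3a call in 11, with adjusted p up to 0.105 and 0.0984.

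Among 10 nonsense-mediated decay factors, Nbas was higher in WSB/EiJ than in C57BL/6J (0.35 ± 0.08, adjusted p = 0.00242) and Upf1, the central decay helicase, was lower (-0.28 ± 0.07, adjusted p = 0.0071). Upf1 lay at 18.4 to 22.9 CPM (median 20.7) in WSB/EiJ and at 22.01 to 28.6 CPM (median 24.6) in C57BL/6J, overlapping by a narrow margin. Among 10 other proteins with MIF4G or MA3 domains, the domain types of Cwc22, only Nom1, a nucleolar protein, passed against C57BL/6J, as lower (-0.22 ± 0.06, adjusted p = 0.0148). Without C57BL/6J high-fat replicate 2 its adjusted p was 0.0574. With all libraries, 29.5% of all genes passed in WSB/EiJ minus C57BL/6J.

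In the Prp19 and intron-binding complexes, which join the spliceosome near the time Cwc22 does, Ctnnbl1 was higher in WSB/EiJ than in C57BL/6J (0.31 ± 0.08, adjusted p = 0.00505). Aqr, the intron-binding helicase, was lower (-0.22 ± 0.06, adjusted p = 0.0111), as was the ubiquitin ligase Prpf19 (-0.33 ± 0.10, adjusted p = 0.025). The Prpf19 call was lost in 5 of 24 fits without 1 library, with adjusted p up to 0.0641. The other 13 genes of this list did not pass, in a comparison in which 29.5% of all genes passed.

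Of 18 activation and step factors tested, 3 were higher and 1 lower than in C57BL/6J, against 13.2% and 16.4% of all genes. Cdc40, a second-step factor, lay at 12.7 to 21.8 CPM (median 16.8) in WSB/EiJ and at 9.28 to 16.7 CPM (median 10.5) in C57BL/6J, which overlap, with a difference of 0.55 ± 0.12 and an adjusted p of 0.00233. Srrm2, an SR-related protein of the spliceosome, was higher by 0.55 ± 0.17 (adjusted p = 0.0226), a call lost without C57BL/6J standard-diet replicate 3 (adjusted p = 0.0538) or high-fat replicate 2 (adjusted p = 0.0591). Cwf19l2 was also higher (0.37 ± 0.10, adjusted p = 0.0102). Dhx16, the helicase that remodels the activated spliceosome, was lower (-0.22 ± 0.07, adjusted p = 0.0228), and its call was lost in 6 of 24 fits without 1 library, with adjusted p up to 0.09. Among the 8 U5 proteins, Prpf8 (0.27 ± 0.08, adjusted p = 0.0126) and the helicase Ddx23 (0.2 ± 0.05, adjusted p = 0.00757) were higher in WSB/EiJ than in C57BL/6J, and Prpf6 was lower (-0.25 ± 0.05, adjusted p = 0.0013). In the high-fat groups alone the Prpf8 difference was -0.0132. Over both diets Prpf8 lay at 361 to 579 CPM (median 488) in WSB/EiJ and at 380 to 423 CPM (median 384) in C57BL/6J, which overlap.

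Few of these 16 calls against C57BL/6J held within each diet, where only 6 libraries are compared. Calls fell over all genes too. In the high-fat groups alone 8.81% of all genes were higher and 9.1% lower, against 13.2% and 16.4% over both diets. The share of all genes for the standard-diet groups, or called in both diets, is not given here. The counts below therefore do not set the 16 genes apart from other genes. In the high-fat groups alone 5 of the 16 passed, namely Aqr, Ctnnbl1, Prpf6, Upf1 and Upf3a. In the standard-diet groups alone 6 passed, namely Cdc40, Cwf19l2, Nbas, Prpf6, Prpf8 and Pym1, so that Prpf6 was the 1 gene called in both. Cdc40 was at 0.2 in the high-fat groups (adjusted p = 0.45) and at 0.9 in the standard-diet groups (adjusted p = 0.00118). Nbas was at 0.16 in the high-fat groups (adjusted p = 0.323) and Cwf19l2 at 0.18 (adjusted p = 0.412). Ctnnbl1 was at 0.15 in the standard-diet groups (adjusted p = 0.351), Aqr at -0.12 (adjusted p = 0.339) and Upf3a at -0.07 (adjusted p = 0.714). The strain by diet interaction over all strains passed for none of the 16 in edgeR, with adjusted p from 0.0826 (Prpf8) to 0.926 (Upf1). Over all genes 3.08% passed in that test. An interaction for WSB/EiJ and C57BL/6J alone was not tested. Over library totals 11 of the 16 passed, and the calls for Ctnnbl1 (adjusted p = 0.0564), Cwf19l2 (0.0702), Srrm2 (0.0861), Ddx23 (0.219) and Upf3b (0.227) were lost.

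**Figure D5:**
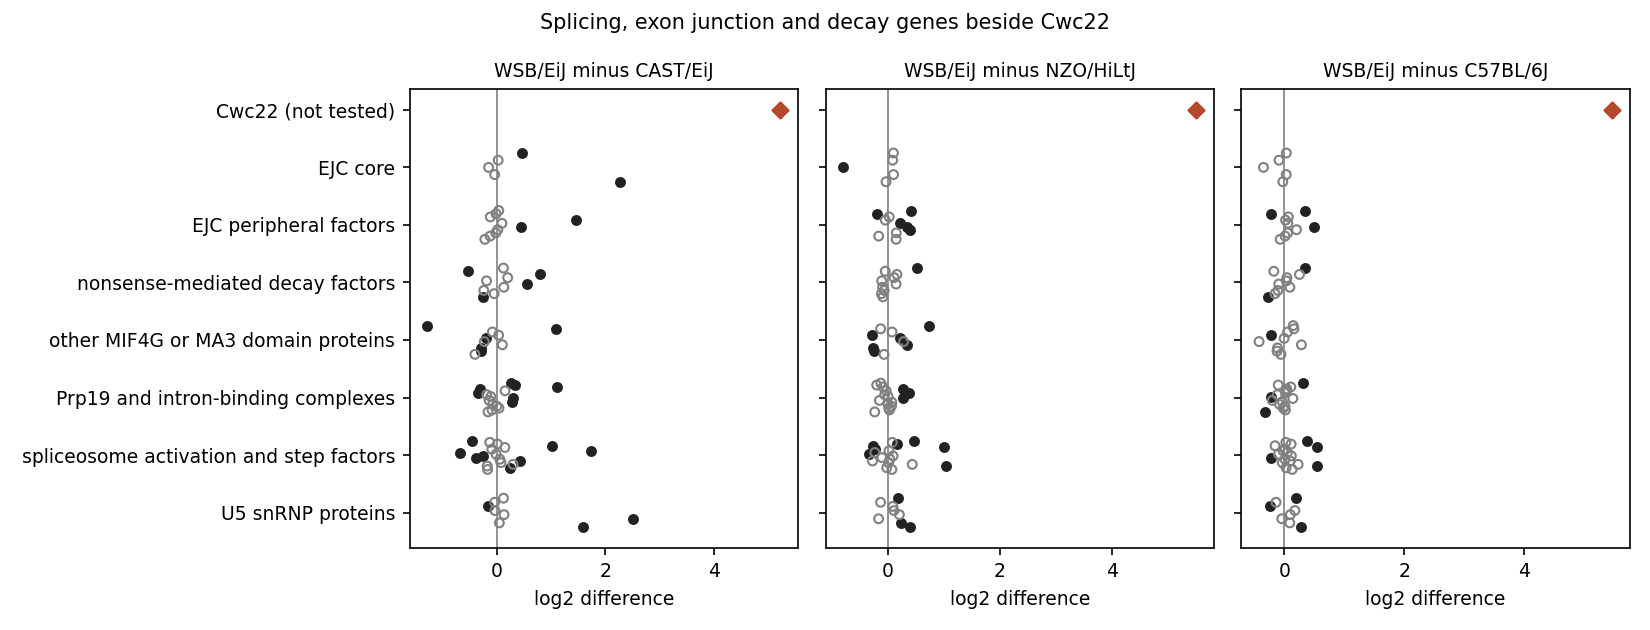
Log2 difference of each tested gene of the 7 lists in WSB/EiJ minus each other strain. Filled points passed an adjusted p of 0.05 in edgeR, open points did not, and the diamond is Cwc22, which was not tested. The filled points far to the right in the CAST/EiJ panel are mostly chromosome 11 genes, among them Eif4a3 at 2.28.

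The same lists were examined for diet. Averaged over strains, 8 of the 77 genes were higher on the high-fat diet and 9 lower, against 17.1% and 11.8% of all genes. Over library totals without scaling factors 26 were higher and 2 lower, where 29.9% of all genes were higher and 6.49% lower. Without the 6 libraries with Epcam no WSB/EiJ high-fat library remains, so the average is over the other strains. In that average 3 were higher and 2 lower, where 6.42% of all genes were higher and 5.9% lower. With all libraries, Eif4a3 did not pass (-0.05 ± 0.05, adjusted p = 0.396 in edgeR). Smg1, the kinase that acts on Upf1, was higher on the high-fat diet (0.31 ± 0.08, adjusted p = 0.0103), as was the U5 protein Cd2bp2 (0.12 ± 0.04, adjusted p = 0.0283). Prpf8 was lower (-0.22 ± 0.05, adjusted p = 0.0101), and Pym1 was lower too (-0.19 ± 0.06, adjusted p = 0.0321).

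By Pearson correlation, the genes whose levels followed Cwc22 most closely over the 24 libraries were low in level, with reads mostly in WSB/EiJ. The 4 with a symbol are annotated as pseudogenes. By Pearson correlation of log2(CPM + 1), the first was Gm13750, a processed pseudogene on chromosome 1 (r = 0.997), which averaged 16.9 CPM in WSB/EiJ and between 0.251 and 0.312 CPM in the other strains. It was followed by Gm8624 on chromosome 11 (r = 0.995), Ccnd3-ps on chromosome 4 and Rpl21-ps12 on chromosome 6 (r = 0.99 each), and an identifier without a symbol (r = 0.989). The 4 named genes lie on other chromosomes than Cwc22. The 14 parallel identifiers had r of 0.965 to 0.966. All of these Pearson values rest on the gap between 6 WSB/EiJ libraries and the other 18, by which Cwc22 was chosen, and are a description only. Genes with hardly any reads in the other strains passed the filter on low counts through WSB/EiJ. Ccnd3-ps, for 1, averaged at most 0.0107 CPM in another strain. By Spearman correlation, the 5 genes most like Cwc22 were instead members of the 14 identifiers (rho = 0.942 each).

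With the group means subtracted, so that only the spread among mice of a group remained, the 5 most like Cwc22 were members of the 14 identifiers (r = 0.813 for each of the 5, and 0.775 to 0.813 over the 14). Outside the 14, the highest were the zinc finger gene Zfp760 (r = 0.747) and Ppm1d, which encodes a protein phosphatase (r = 0.734). All points come from the same 24 libraries and share their scaling.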

How the data were processed

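Poly(A) RNA of inguinal fat from 24 mice was read as 100-base pairs, per the labels' protocols. The authors deposited estimated counts per gene as whole numbers, taken here to be an RSEM-type expected count, and an upper-quartile normalised signal. Each signal value equalled the count divided by the 75th percentile of the library's counts above 0 (within 0.0005). The submitters' processing notes name RSEM 1.2.1, Bowtie 0.12.8, CASAVA 1.8.0 and the builds NCBIM37 and mm9. The way RSEM divided reads that match several entries is not given in the sources used here, and strand counting is not either. Of 37991 identifiers, 32919 matched a symbol in the GRCm38 annotation. That annotation is of another build, so no coordinates are given, and it was used for names, chromosomes, gene order and transcripts.

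Counts were tested with edgeR 4.0.16 (R 4.3.3), with TMM scaling, 8 group means and quasi-likelihood tests. Its low-count filter left 20035 genes, with 16 residual degrees of freedom, and p-values were adjusted by Benjamini-Hochberg over all of them. DESeq2 1.42.0 and limma 3.58.1 (voom) were alternatives. The steps were run on simulated counts with less spread between libraries than these data have. That run does not show how small a change could be found here. The labels give no replicate numbers, so replicates were numbered in accession order. Mice of 1 group are separate animals.

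Cwc22 and the gene lists were chosen with earlier results of these data known. Named from each list were up to 3 members per direction with the smallest adjusted p in WSB/EiJ minus C57BL/6J, Eif4a3, the neighbours, and the 5 genes most like Cwc22 by each measure. Rbm8a, Magoh, Magohb, Eftud2, Slu7, Alyref, Smg1 and Cd2bp2 were named after their values were seen. The sum of Cwc22 with 14 identifiers, library totals without scaling and the split by chromosome 11 were also added after seeing the data. Counting intervals and floors cover counting error only.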

Additional observations from a re-analysis of the deposited data

Results flagged for a closer look

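Itga4, the α4 integrin subunit and a neighbour of Cwc22 on chromosome 2, differed between strains in its response to diet, with an adjusted p of 0.0298 for the strain by diet interaction in edgeR. On the log2 scale, high-fat minus standard was 1.0 ± 0.16 in NZO/HiLtJ mice (adjusted p = 0.00109 in edgeR). It was 0.30 ± 0.16 in C57BL/6J (adjusted p = 1) and 0.11 ± 0.16 in CAST/EiJ (adjusted p = 0.649). In WSB/EiJ mice it was -0.16 ± 0.16, with an adjusted p of 0.473. The summed macrophage markers (6 of 6 in the table, none at 0) separated the diets in NZO/HiLtJ and overlapped between diets in the other strains. They summed to 2250 to 3017 CPM in NZO/HiLtJ high-fat libraries and to 705 to 1091 CPM in NZO/HiLtJ standard-diet libraries. In WSB/EiJ they summed to 343 to 440 CPM on the high-fat diet and to 331 to 406 CPM on the standard diet. The sums in CAST/EiJ were 188 to 647 CPM on the high-fat and 403 to 562 CPM on the standard diet. Those in C57BL/6J were 689 to 956 CPM and 660 to 765 CPM. The part of macrophage markers in the Itga4 difference was not tested.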

How the results depend on the processing

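No paired analysis was possible because the labels give no replicate numbers. The diet difference of Cwc22 passed in no alternative, and values near 0 changed sign. In WSB/EiJ it was -0.00154 with RLE factors, with DESeq2 and without the CAST/EiJ high-fat library low in Adipoq, -0.00325 with upper-quartile scaling, -0.00164 with limma-voom and -0.00707 for the sum with the 14 identifiers. In NZO/HiLtJ it was -0.0214 with upper-quartile scaling. Averaged over strains it was -0.00176 without that CAST/EiJ library and -0.0257 for the sum. Without the 6 libraries with Epcam it was -0.0186, averaged over the strains other than WSB/EiJ. Leaving out each library in turn gave -0.0722 to 0.0439 in WSB/EiJ, 0.0906 to 0.225 in CAST/EiJ, -0.0385 to 0.0561 in NZO/HiLtJ, -0.204 to -0.093 in C57BL/6J and -0.0145 to 0.0216 on average. The strain differences for the sum were 4.88 against CAST/EiJ, 6.18 against NZO/HiLtJ and 6.16 against C57BL/6J. Without the 6 libraries with Epcam no WSB/EiJ high-fat library remains, so that neither a WSB/EiJ diet effect nor a strain difference over both diets was run.

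The list counts that follow show only how far they moved with the processing. For settings with no share of all genes given above, they cannot show whether the lists moved apart from all genes. List genes higher against C57BL/6J numbered 14 with RLE, with DESeq2 and without the CAST/EiJ library, 1 in high-fat groups and 4 over library totals. Lower ones numbered 3 in standard-diet groups, 4 in high-fat groups and 12 over totals. Against CAST/EiJ 6 were lower in standard-diet groups, 11 higher in high-fat groups and 8 higher off chromosome 11. Against NZO/HiLtJ 1 was lower in standard-diet groups, 11 were higher in high-fat groups, 11 were higher and 14 lower over totals, and 13 were lower without the CAST/EiJ library. For diet, 5 were higher with no filter, and 26 higher and 2 lower over totals. Without the Epcam libraries, and so without WSB/EiJ in the average, 3 were higher and 2 lower. Without 1 library, list counts ran from 17 to 24 higher and 12 to 17 lower against CAST/EiJ, 17 to 24 and 7 to 13 against NZO/HiLtJ, 7 to 14 and 3 to 10 against C57BL/6J, and 5 to 13 and 5 to 11 for diet. Lower list genes against C57BL/6J fell to 4 without C57BL/6J standard replicate 3 and to 3 without C57BL/6J high-fat replicate 2. Higher ones for diet numbered 5 without C57BL/6J standard replicate 2, C57BL/6J high-fat replicate 1, NZO/HiLtJ high-fat replicate 1, CAST/EiJ standard replicate 1 or WSB/EiJ standard replicate 1, and 13 without CAST/EiJ high-fat replicate 3. Lower ones for diet numbered 5 without WSB/EiJ standard replicate 2. With the stricter filter, which removes Gm13649 and Gm13726, neighbours higher numbered 1 against CAST/EiJ and 0 against C57BL/6J, and 0 were lower than in NZO/HiLtJ in standard-diet groups. Without 1 library, 1 to 2 neighbours were lower than in CAST/EiJ, with 2 without CAST/EiJ high-fat replicate 2 or 3 or WSB/EiJ standard replicate 3. Spearman's rho shared 0 of the 5 genes most like Cwc22.

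Some differences close to 0 from C57BL/6J, none past the threshold except Prpf8, changed sign. With RLE they were 0.00803 for Eif4a3, 0.00186 for Ube2e3 and 0.0248 for Itga4, and with DESeq2 0.00855, 0.00178 and 0.02513. Itga4 was at 0.00656 with the stricter filter and 0.00173 without the CAST/EiJ library. In standard-diet groups Casc3 was at -0.0606, Ccdc141 at 0.0217, Gm13651 at 0.01547, Ube2e3 at 0.0151, Itga4 at 0.22 and Cerkl at 0.0513. In high-fat groups Prpf8 was at -0.0132, Sestd1 at 0.0751 and Itprid2 at -0.0551, and over totals Casc3 was at -0.04623. Without 1 library, Eif4a3 ran from -0.0492 to 0.00989, Ccdc141 from -1.19 to 0.175, Sestd1 from -0.222 to 0.039, Gm13651 from -0.164 to 0.0444, Ube2e3 from -0.0675 to 0.0108, Itga4 from -0.0686 to 0.0693, Cerkl from -0.186 to 0.0286 and Itprid2 from -0.0427 to 0.191. The cause was not tested for any of these.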
